A study of Arabidopsis thaliana with 9 samples.

Results

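Among the Arabidopsis thaliana genes measured in wild-type seedlings and in seedlings of 2 lines that overexpress a long noncoding RNA (lncRNA), 10 genes of jasmonate synthesis and response were examined, out of 38194 genes counted. They were selected by gene identifier, from a list proposed with their levels in these same libraries in view, so that their differences between groups are given as a description and without a p-value. They comprised 3 13-lipoxygenases (LOX2, AT3G45140; LOX3, AT1G17420; LOX4, AT1G72520), allene oxide synthase (AOS, AT5G42650), 2 allene oxide cyclases (AOC1, AT3G25760; AOC2, AT3G25770), 12-oxophytodienoate reductase OPR3 (AT2G06050), the transcription factor MYC2 (AT1G32640) and the vegetative storage protein genes VSP1 (AT5G24780) and VSP2 (AT5G24770).

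Jasmonates are lipid hormones made when plants are wounded or attacked, and also during flower development. In the chloroplast, a 13-lipoxygenase oxidises linolenic acid, AOS turns the product into an unstable epoxide and an AOC closes its ring to give 12-oxophytodienoic acid (OPDA), which OPR3 reduces in the peroxisome before the side chain is shortened by beta-oxidation. JAR1 then joins jasmonic acid to isoleucine, and this conjugate brings the F-box protein COI1 and the JAZ repressors together. The JAZ proteins are degraded and MYC2 and its relatives are released to activate their targets, among them VSP genes, genes of jasmonate synthesis and the JAZ genes.

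RNA-Seq was made from whole seedlings 4 days old, kept at 23 °C on MS/2 medium in long days. There were 3 groups of 3 libraries, whose replicates are lettered A to C. The WT group is Columbia, the background of both transgenic lines. OE APOLO carries the Arabidopsis lncRNA APOLO under the 35S promoter, and OE UPAT carries the human lncRNA UPAT under the same constitutive viral promoter. Each was 1 transgenic line, so that an effect of the lncRNA and an effect particular to that line cannot be told apart. Gene counts summed to between 12990391 and 14048069 in WT libraries, 11887311 and 14078290 in OE APOLO, and 7883571 and 9184836 in OE UPAT. The APOLO transcript (AT2G34655) had 2, 2 and 2 counts in WT, 1, 3 and 3 in OE APOLO and 1, 1 and 0.5 in OE UPAT, at or under the floor of 3 counts in every library. The label OE APOLO was therefore not borne out by its own transcript, and UPAT has no row with which to check the other label, so that both names stand below for the libraries so labelled. Levels are given as CPM, the usual depth-scaled count, in which deposited counts are divided by a TMM-scaled library size. In the library with fewest counts, 3 counts equal 0.393 CPM, and this floor covers counting error only. The methods describe the replicates of a sister RNA-Seq experiment as biological and independent, and do not repeat this for these libraries. The labels do not say whether replicates came from separate cultures, so p-values measure the spread between these libraries, which may be technical.

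The sequences upstream of LOX2, AOS and AOC2 are shown because these 3 genes had the clearest differences between groups. MYC2 and its relatives bind the G-box (CACGTG) and near variants, here CACATG and CACGTT, each searched on both strands in the 250 bases before the annotated gene start (TAIR10.1 sequence and RefSeq annotation). The windows lie at chr3:16524995-16525244 on the plus strand for LOX2, chr5:17099596-17099845 on the minus strand for AOS and chr3:9406419-9406668 on the plus strand for AOC2. They are printed 5′ to 3′ on the strand of the gene, with matches in capitals:
LOX2: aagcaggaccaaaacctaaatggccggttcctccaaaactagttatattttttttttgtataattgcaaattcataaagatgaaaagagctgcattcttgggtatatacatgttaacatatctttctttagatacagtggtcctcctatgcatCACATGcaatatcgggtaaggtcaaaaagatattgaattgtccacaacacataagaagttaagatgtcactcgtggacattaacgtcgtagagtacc
AOS: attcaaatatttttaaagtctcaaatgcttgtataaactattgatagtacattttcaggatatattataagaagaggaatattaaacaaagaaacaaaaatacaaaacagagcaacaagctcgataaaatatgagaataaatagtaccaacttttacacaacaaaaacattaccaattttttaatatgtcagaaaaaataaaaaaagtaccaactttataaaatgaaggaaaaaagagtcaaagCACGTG
AOC2: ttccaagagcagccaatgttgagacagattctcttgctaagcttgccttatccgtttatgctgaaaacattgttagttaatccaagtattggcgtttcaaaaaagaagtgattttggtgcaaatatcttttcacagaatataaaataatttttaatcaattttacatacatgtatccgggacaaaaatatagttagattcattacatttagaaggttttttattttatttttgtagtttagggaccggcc
The AOS window ends in a G-box, 6 to 1 bases before the annotated start. The LOX2 window holds CACATG 97 to 92 bases before the start, and the AOC2 window holds none of these letters. Of the other members, LOX3 had the CACATG type on the opposite strand, and MYC2, LOX4, AOC1 and VSP1 the CACGTT type. OPR3 and VSP2 had no match. Among 27444 protein-coding genes, 6.49% had a G-box in the same window, 11.1% the CACATG type and 7.54% the CACGTT type. These matches describe the letters only and were not tested as binding sites.

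LOX2 differed most between the groups. It encodes a chloroplast 13-lipoxygenase that is known for the jasmonate burst of wounded leaves, and lies at chr3:16525245-16529352. Its counts were 5, 16 and 10 in WT A, B and C, 28, 33 and 31 in OE APOLO and 103, 80 and 87 in OE UPAT. These correspond to 0.36, 1.1 and 0.78 CPM in WT, 2.09, 2.44 and 2.67 CPM in OE APOLO and 11.3, 8.71 and 11.4 CPM in OE UPAT. The 3 groups did not overlap, with WT lowest and OE UPAT highest. Groups without overlap were common: of all 20021 genes tested, every library was higher in OE APOLO than in WT for 15.9% and lower for 15.1%. The shares were 23.1% and 23.6% for OE UPAT against WT, and 19.8% and 21.9% for OE UPAT against OE APOLO. The level was 3.16-fold higher in the libraries labelled OE APOLO than in WT (log2 fold change 1.66 ± 0.31, SE, n = 3) and 13.7-fold higher in OE UPAT (3.78 ± 0.26). OE UPAT stood 4.34-fold above OE APOLO (2.12 ± 0.22). The WT counts were low, and without WT A or without WT C the difference of OE APOLO was no longer past the threshold used across all genes (log2 fold change 1.33 and 1.69).

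For the other lipoxygenases among the members, the libraries of the 3 groups overlapped. LOX3 and LOX4 are 13-lipoxygenases known in stamen development and in the wound response. LOX3 had 1.51, 2.48 and 1.63 CPM in WT, 2.47, 1.93 and 2.67 CPM in OE APOLO and 2.19, 3.81 and 3.01 CPM in OE UPAT, and each pair of groups overlapped. The LOX3 means rose in the order of LOX2, at 1.875 CPM in WT, 2.356 CPM in OE APOLO and 3.005 CPM in OE UPAT. Its log2 fold change against WT was 0.32 ± 0.27 in OE APOLO and 0.67 ± 0.27 in OE UPAT, neither past the threshold. LOX4 had from 3 to 12 counts in a library, too few to pass the filter on low counts, and its levels overlapped between all groups at 0.26 to 0.93 CPM. The coding sequences of LOX3 and LOX4 were 79.7% identical, and those of LOX2 and LOX3 55.5%.

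LOX6, a further 13-lipoxygenase that is not among the 10 genes, had the highest level of the family. Per kilobase of exon, LOX6 had 7.26 ± 0.43 CPM per kb in WT (SD, n = 3) against 0.23 ± 0.11 for LOX2. In OE UPAT, LOX6 had 10.4 ± 1.16 CPM per kb and LOX2 3.22 ± 0.47. LOX2 thus made up 1.47% to 3.85% of the summed 13-lipoxygenase level per kb in WT libraries, 5.6% to 6.2% in OE APOLO and 20.2% to 23.3% in OE UPAT. LOX6 rose in both lines, with a log2 fold change of 0.57 ± 0.10 in OE APOLO (edgeR quasi-likelihood test, FDR 0.00112) and 0.52 ± 0.10 in OE UPAT (FDR 0.00103). In OE APOLO its FDR was 0.0102 without WT A.

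**Figure D1:**
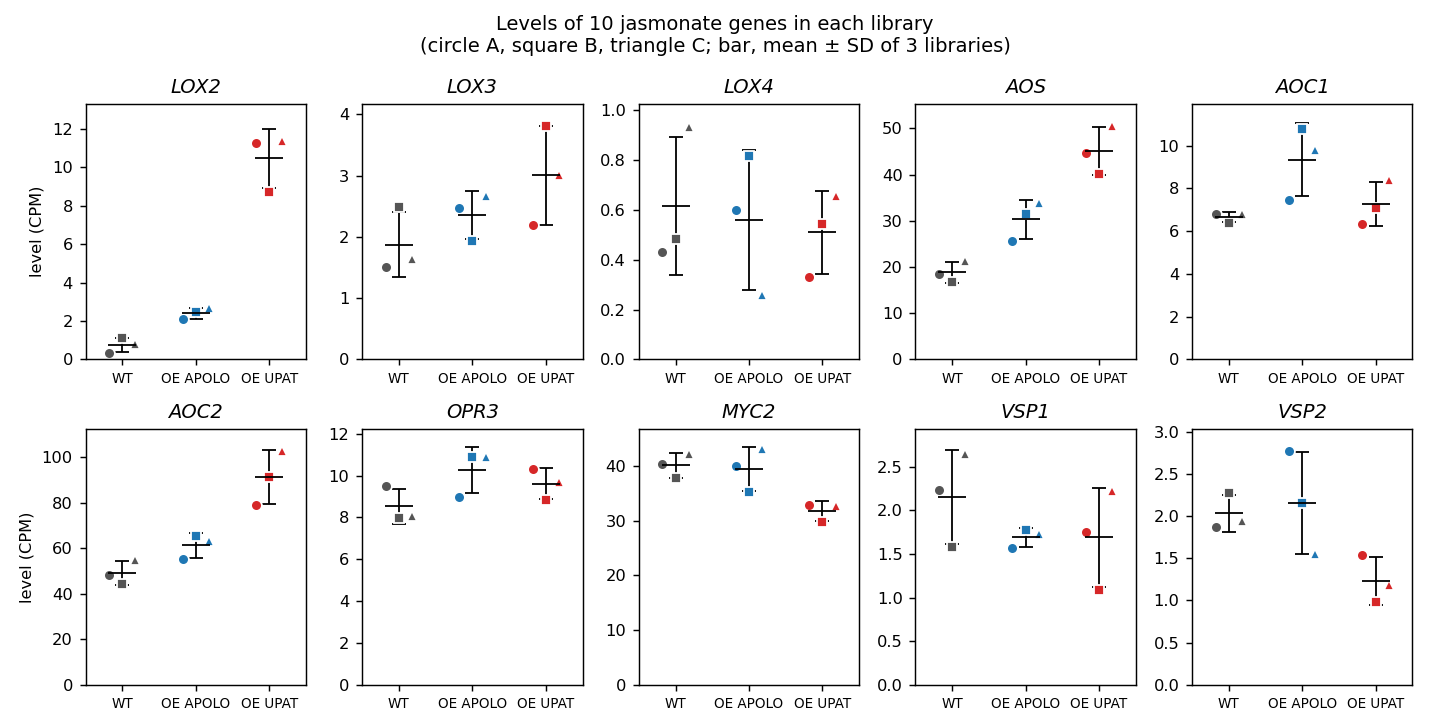
Levels (CPM, linear axis from 0) of the 10 jasmonate genes in each of the 9 libraries, with the mean and SD of the 3 libraries of each group. LOX2, AOS and AOC2 increase from WT to OE APOLO to OE UPAT without overlap (15.9% of all genes lay wholly higher in OE APOLO than in WT, and 23.1% in OE UPAT), while LOX3, LOX4, OPR3 and VSP1 overlap between all groups.

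AOS, the cytochrome P450 that commits the lipoxygenase product to jasmonate synthesis, followed the order of LOX2 with smaller differences. It is encoded at chr5:17097564-17099595 by 1 gene. It had 18.4, 16.8 and 21.3 CPM in WT, 25.6, 31.5 and 33.8 CPM in OE APOLO and 44.7, 40.1 and 50.5 CPM in OE UPAT. Every OE APOLO library was above every WT library, and every OE UPAT library above every OE APOLO library. The level was 1.61-fold higher in the libraries labelled OE APOLO than in WT (log2 fold change 0.69 ± 0.12) and 2.39-fold higher in OE UPAT (1.26 ± 0.12). OE UPAT was 1.49-fold above OE APOLO (0.57 ± 0.11), a difference that was not past the threshold without OE UPAT C (0.49).

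AOC2 showed the same order, while AOC1 did not. Both encode allene oxide cyclase, at chr3:9406669-9408071 for AOC2 and chr3:9403779-9405338 for AOC1. AOC2 had 48.1, 44.3 and 55.0 CPM in WT, 55.3, 65.4 and 63.4 CPM in OE APOLO and 79.2, 91.6 and 103 CPM in OE UPAT. Each OE UPAT library was above all others, and OE APOLO was above WT by a small margin. The AOC2 level was 1.86-fold higher in OE UPAT than in WT (log2 fold change 0.89 ± 0.10) and 1.49-fold above OE APOLO (0.57 ± 0.10). In OE APOLO it was 1.25-fold above WT (0.32 ± 0.10), which was not past the threshold.

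AOC1 was highest in OE APOLO. It had 6.82, 6.39 and 6.79 CPM in WT, 7.46, 10.8 and 9.79 CPM in OE APOLO and 6.33, 7.08 and 8.38 CPM in OE UPAT. OE APOLO lay above WT in every library, and OE UPAT overlapped with both. The log2 fold change was 0.49 ± 0.15 in OE APOLO, 0.12 ± 0.17 in OE UPAT and −0.37 ± 0.16 between OE UPAT and OE APOLO. None was past the threshold, although the first was without OE APOLO A (0.64).

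AOC1, AOC2 and AOC3 lie next to each other on chromosome 3 and are close copies, so a coding stretch of each is shown. It was placed at the longest run shared by AOC1 and AOC3, and AOC2 is shown over the matching bases. AOC1 and AOC2 were 89.9% identical over their aligned coding sequences and AOC1 and AOC3 81.2%. The following 90 bases of coding sequence (TAIR10.1, plus strand) lie at chr3:9404661-9404750, chr3:9407395-9407484 and chr3:9409965-9410054, with capitals where a copy differs from AOC1:
AOC1: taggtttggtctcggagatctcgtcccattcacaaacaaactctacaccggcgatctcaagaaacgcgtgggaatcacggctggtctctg
AOC2: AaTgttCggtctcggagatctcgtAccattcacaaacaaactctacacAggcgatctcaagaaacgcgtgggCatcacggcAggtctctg
AOC3: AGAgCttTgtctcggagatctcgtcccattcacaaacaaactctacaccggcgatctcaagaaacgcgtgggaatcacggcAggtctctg
AOC2 differs from AOC1 at 7 of these bases, and AOC3 at 6. AOC3 shares a run of 73 bases with AOC1, just under the read length of 75 bases. No stretch of 75 coding bases occurred in more than 1 of these genes, but of stretches of 31 bases, the shortest read kept, 9.8% of AOC1, 5.74% of AOC2 and 8.57% of AOC3 did. AOC1, AOC2 and AOC3 had fractional counts, so that some reads were divided between copies and their separate values are uncertain. Summed over AOC1 to AOC4, the log2 fold change was 0.28 ± 0.08 in OE APOLO and 0.64 ± 0.08 in OE UPAT. AOC2 made up 61.6% to 69.4% of the summed AOC level per kb in WT and 75.8% to 80.1% in OE UPAT.

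**Figure D2:**
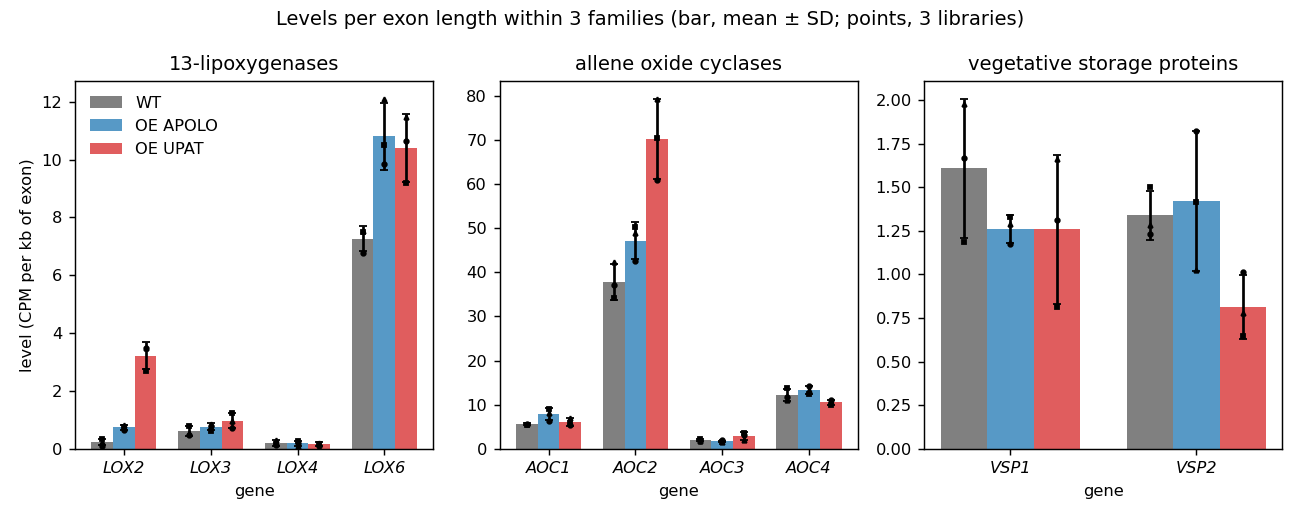
Mean level per kilobase of exon (CPM per kb, axes from 0, SD and 3 libraries as points) of the 13-lipoxygenases, the allene oxide cyclases and the vegetative storage proteins in the 3 groups. LOX6 and AOC2 have the highest levels of their families in every group, and LOX2 makes up 20.2% to 23.3% of the lipoxygenase level in OE UPAT.

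OPR3, the peroxisomal enzyme that reduces OPDA and that anthers need to open on time, differed little. It had 9.50, 7.99 and 8.09 CPM in WT, 8.97, 10.9 and 10.9 CPM in OE APOLO and 10.3, 8.82 and 9.69 CPM in OE UPAT. All 3 groups overlapped. Its log2 fold change was 0.26 ± 0.13 in OE APOLO and 0.17 ± 0.14 in OE UPAT, neither past the threshold.

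MYC2, the bHLH factor that activates the wound branch of the response, was lower in OE UPAT. It had 40.3, 37.7 and 42.2 CPM in WT, 40.0, 35.2 and 43.1 CPM in OE APOLO and 32.9, 29.7 and 32.7 CPM in OE UPAT. Each OE UPAT library was below every other library, and OE APOLO overlapped with WT. The level was 1.26-fold lower in OE UPAT than in WT (log2 fold change −0.33 ± 0.09) and did not pass the threshold in OE APOLO (−0.03 ± 0.08). The difference in OE UPAT was past the threshold in 8 of 18 alternatives. It was not with DESeq2, RLE normalization, upper-quartile normalization or no size factors, nor without any 1 of the WT or OE UPAT libraries (log2 fold change −0.27 to −0.38).

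VSP1 and VSP2 encode acid phosphatases that accumulate in leaves given jasmonate and are used as markers of the MYC2 branch. Both were near the lower limit of measurement, with 9 to 37 counts in a library. VSP1 had 2.23, 1.58 and 2.64 CPM in WT, 1.57, 1.78 and 1.73 CPM in OE APOLO and 1.75, 1.09 and 2.23 CPM in OE UPAT, with overlap between all groups. VSP2 had 1.87, 2.27 and 1.94 CPM in WT, 2.77, 2.15 and 1.55 CPM in OE APOLO and 1.54, 0.98 and 1.18 CPM in OE UPAT. The OE UPAT libraries were the lowest for VSP2, OE UPAT A narrowly so.

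The log2 fold change of VSP2 was −0.72 ± 0.30 in OE UPAT and 0.10 ± 0.25 in OE APOLO, and that of VSP1 −0.36 ± 0.29 and −0.34 ± 0.27. None was past the threshold. The coding sequences of VSP1 and VSP2 were 87.8% identical. A stretch of 90 bases placed around their longest shared run is shown. It lies on the minus strand at chr5:8508576-8508665 and chr5:8501546-8501635 (TAIR10.1), with capitals where VSP2 differs from VSP1:
VSP1: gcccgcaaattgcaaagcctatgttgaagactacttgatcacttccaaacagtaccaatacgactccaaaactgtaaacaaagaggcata
VSP2: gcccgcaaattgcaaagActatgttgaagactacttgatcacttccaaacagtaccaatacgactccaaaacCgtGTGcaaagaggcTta
The longest identical run was 54 bases, shorter than a full read. Of stretches of 31 coding bases, 7.15% of VSP1 and 7.29% of VSP2 were not unique. Summed, both genes had a log2 fold change of −0.11 ± 0.19 in OE APOLO and −0.52 ± 0.22 in OE UPAT. In OE UPAT, which had the highest LOX2, AOS and AOC2 levels, neither VSP gene was past the threshold. With 9 to 17 counts in these libraries, small differences could not be detected. All these genes were selected with the contrasts in view, so nothing is read from this.

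**Figure D3:**
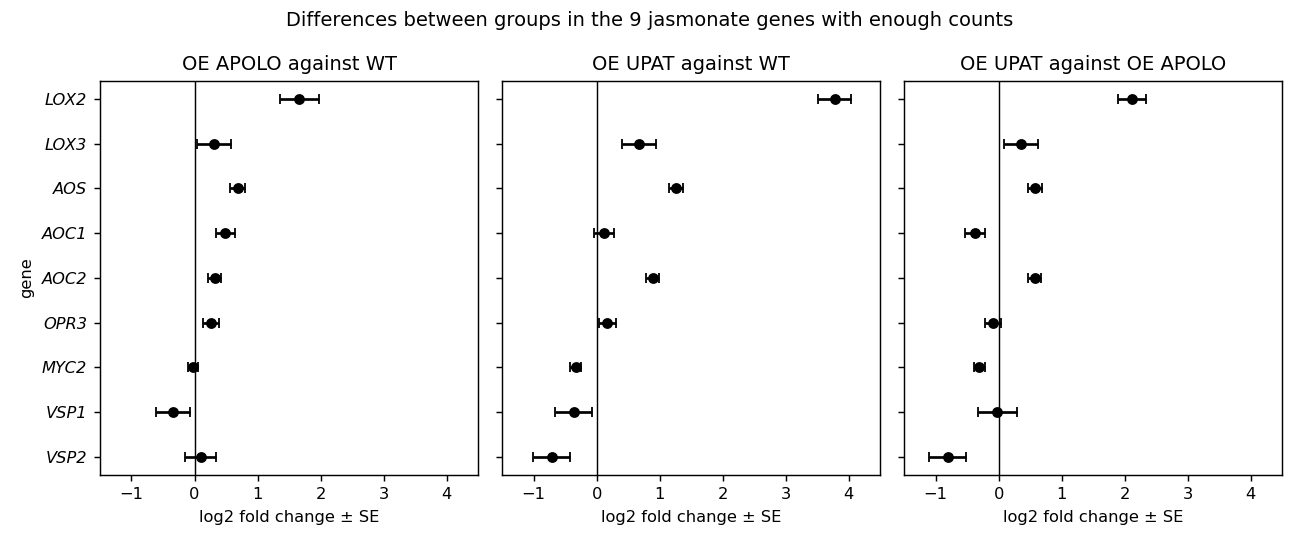
Log2 fold change with its SE in the 3 comparisons for the 9 members with enough counts to be fitted. LOX2 has the largest values, 1.66 in OE APOLO and 3.78 in OE UPAT, while VSP2 lies at −0.72 and MYC2 at −0.33 in OE UPAT.

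Counted over the 9 members that passed the filter on low counts, 2 were higher in OE APOLO than in WT past the threshold of an FDR under 0.01 (LOX2 and AOS), and none was lower. Across all 20021 genes tested, 4.27% were higher and 2.27% lower in this comparison. In OE UPAT, 3 members were higher (LOX2, AOS and AOC2) and 1 lower (MYC2), where 10.1% of all genes were higher and 9.72% lower. Between OE UPAT and OE APOLO, 3 were higher (LOX2, AOS and AOC2) and none lower, with 8.49% and 9.36% of all genes. The same contrasts were in view when the members were selected, so nothing is read from these counts. The comparisons of OE APOLO and of OE UPAT share the WT libraries.

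The rest of the jasmonate pathway was represented by 69 genes in lists of synthesis, turnover, signalling and 2 branches of output. They were not tested against LOX2 or the other members. Of the 49 that had enough counts, 1 rose (LOX6) and 1 fell (CHIB) in OE APOLO, where 4.27% and 2.27% of all genes did, and 15 had an unadjusted p under 0.05, against 26.4% of all genes. In OE UPAT, 5 rose and 9 fell, where 10.1% and 9.72% of all genes did, and 31 had an unadjusted p under 0.05, against 41.5% of all genes. Between OE UPAT and OE APOLO, 4 were higher and 10 lower, beside 8.49% and 9.36% of all genes. The median log2 fold change of the 49 was −0.02 in OE APOLO and −0.05 in OE UPAT, beside 0.00 and −0.01 over all genes tested. These lists were likewise drawn up with earlier results of these data known.

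Among 15 tested genes of synthesis, 3 rose and 1 fell in OE UPAT, beside 10.1% and 9.72% of all genes. In this comparison 10 of the 15 had an unadjusted p under 0.05 (41.5% of all genes). FAD8, a plastid desaturase that supplies linolenic acid, had 51.5, 40.1 and 49.3 CPM in WT and 66.3, 64.9 and 73.4 CPM in OE UPAT (log2 fold change 0.54 ± 0.09, FDR 0.00035). OPCL1, the ligase that activates the OPR3 product for beta-oxidation, rose by 0.61 ± 0.15 on the log2 scale (FDR 0.00617), though not with DESeq2 or without any 1 of 5 WT or OE UPAT libraries (FDR 0.013 to 0.0345). ACX1, an acyl-CoA oxidase of that pathway, fell by 0.32 ± 0.06 (FDR 0.00124). AOC3 and AOC4 had log2 fold changes of 0.59 ± 0.22 (FDR 0.0492) and −0.22 ± 0.11 (FDR 0.146). JAR1, which makes the active conjugate, had 63.5 to 71.5 CPM in WT and 67.4 to 69.6 CPM in OE UPAT (log2 fold change 0.00 ± 0.07). The plastid lipase genes DAD1 and DGL had 0 counts in every library.

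Among 8 tested genes of turnover, none passed the threshold in OE APOLO, where 4 had an unadjusted p under 0.05 (26.4% of all genes). In OE UPAT 3 fell (9.72% of all genes) and 6 had an unadjusted p under 0.05 (41.5%). CYP94B1, a hydroxylase that inactivates the isoleucine conjugate, had 26.1, 28.7 and 25.4 CPM in WT, 24.5, 23.5 and 28.6 CPM in OE APOLO and 14.6, 11.7 and 10.3 CPM in OE UPAT. In OE UPAT its log2 fold change was −1.13 ± 0.12 (FDR 5.99e-06), and its OE UPAT libraries lay apart from all others. ST2A, a sulfotransferase of hydroxylated jasmonate, fell by 0.89 ± 0.17 (FDR 0.000795). JRG21 (AT3G55970), a dioxygenase that hydroxylates jasmonic acid, fell by 1.13 ± 0.29 (FDR 0.00761), though not with DESeq2 or without any 1 of 4 WT or OE UPAT libraries (FDR 0.0257 to 0.0451). All 3 genes encode enzymes that modify jasmonates.

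Among 18 tested genes of signalling, none passed the threshold in OE APOLO, where 1 had an unadjusted p under 0.05 (26.4% of all genes). In OE UPAT 1 rose and 4 fell, beside 10.1% and 9.72% of all genes, and 8 had an unadjusted p under 0.05 (41.5%). JAZ4 rose from 2.45, 1.79 and 1.79 CPM in WT to 4.28, 4.90 and 8.11 CPM in OE UPAT (log2 fold change 1.5 ± 0.25, FDR 0.000333). JAZ3 fell by 0.78 ± 0.14 (FDR 0.000468), JAZ9 by 0.64 ± 0.12 (FDR 0.000705) and JAZ12 by 0.34 ± 0.08 (FDR 0.00401), the last named because it completes the count. The JAZ proteins hold MYC factors inactive, through the adaptor NINJA and the corepressor TPL. TPL fell by 0.31 ± 0.07 (FDR 0.00269), though not without WT B, OE UPAT B or OE UPAT C (FDR 0.0119 to 0.0192).

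JAZ1 and JAZ10, which are induced early by jasmonate, had log2 fold changes in OE UPAT of 0.24 ± 0.13 (FDR 0.158) and −0.14 ± 0.28 (FDR 0.734). The receptor gene COI1 had 34.5 to 36.9 CPM in WT and 31.5 to 41.9 CPM in OE UPAT (log2 fold change −0.02 ± 0.09, FDR 0.925). MYC3 and MYC4, which act beside MYC2, had log2 fold changes of 0.01 ± 0.07 (FDR 0.941) and 0.23 ± 0.17 (FDR 0.331). The lower MYC2 level in OE UPAT was therefore not seen in these 2 relatives, but the difference between the genes was not tested.

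Many outputs of the pathway had too few counts to be tested. Of 11 further targets of the MYC branch, this held for 5. Of the 6 tested, 1 rose and 1 fell in OE UPAT, beside 10.1% and 9.72% of all genes, and all 6 had an unadjusted p under 0.05 (41.5%). In OE UPAT, NAC055, a NAC factor controlled by MYC2, fell from 22.0, 20.1 and 21.5 CPM in WT to 9.43, 9.15 and 8.11 CPM (log2 fold change −1.25 ± 0.11, FDR 6.1e-07). The chlorophyllase gene CLH1 rose by 0.81 ± 0.18 (FDR 0.00361), though not without any 1 of the WT libraries or without OE UPAT C (FDR 0.0121 to 0.0245). The thionin gene THI2.1 had 0 counts in every library. In the branch shared with ethylene, the defensin gene PDF1.2a also had 0 counts in every library. Of its 7 genes, 2 could be tested, the hevein-like gene HEL and the chitinase gene CHIB. HEL had a log2 fold change of −0.43 ± 0.11 in OE APOLO (FDR 0.0163) and 0.36 ± 0.11 in OE UPAT (FDR 0.0198), neither past the threshold. Between OE UPAT and OE APOLO both genes were higher, beside 8.49% of all genes. The difference was 0.79 ± 0.11 for HEL (FDR 0.000106) and 0.58 ± 0.13 for CHIB (FDR 0.00323). That of CHIB was lost without OE APOLO B, OE UPAT B or OE UPAT C (FDR 0.0117 to 0.0162). CHIB fell by 0.62 in OE APOLO (SE 0.12, FDR 0.00298), though not in a fit of WT and OE APOLO alone (FDR 0.0111) or without WT A, WT C or OE APOLO B (FDR 0.0116 to 0.0199), and had a log2 fold change of −0.05 ± 0.12 in OE UPAT.

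**Figure D4:**
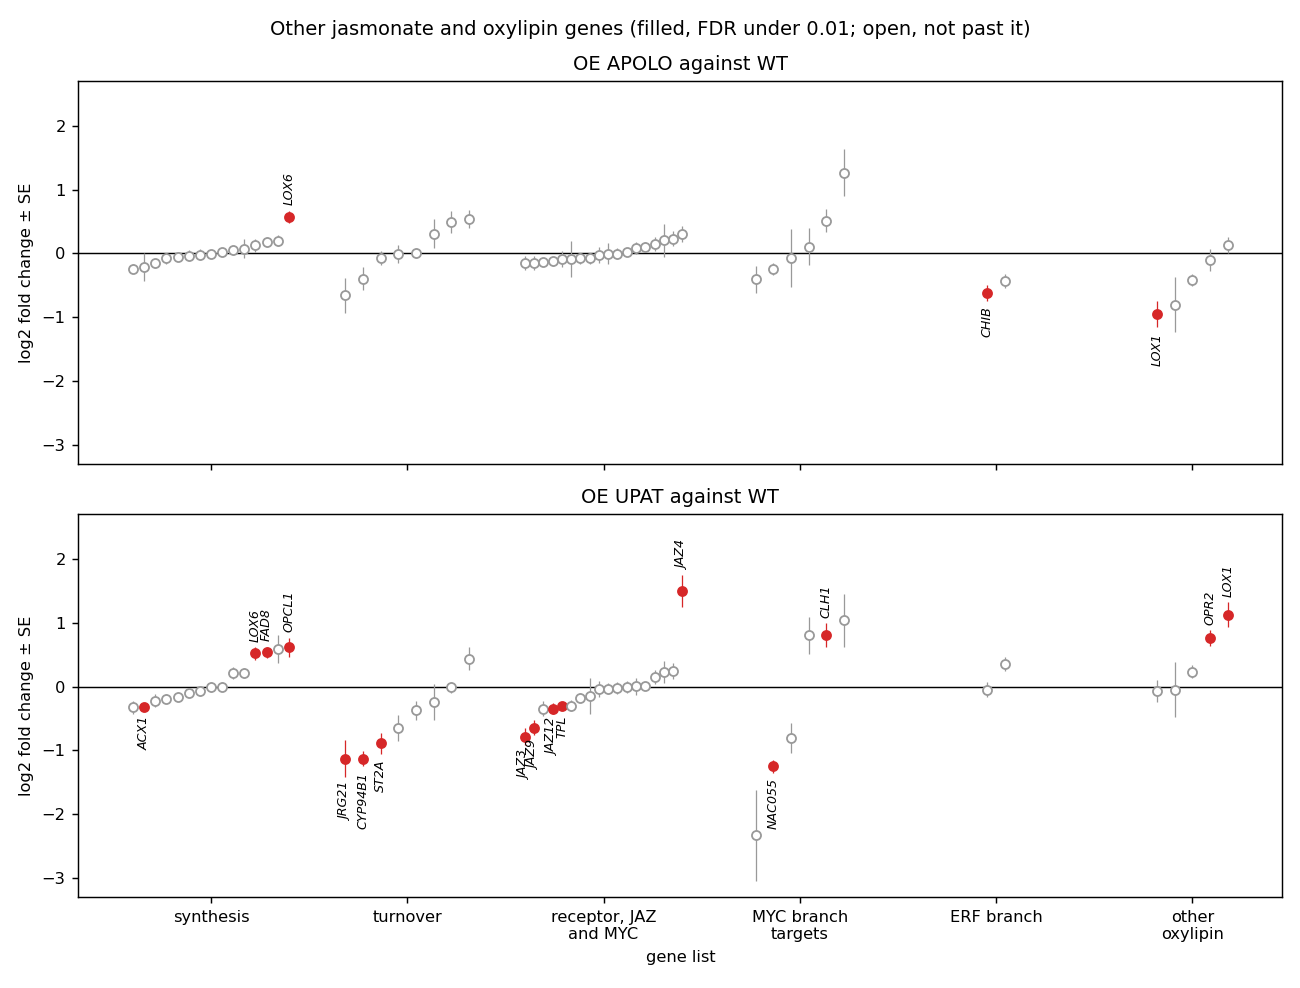
Log2 fold change with its SE of the other jasmonate genes that had enough counts, by list, and of 5 genes of other oxylipin routes, in OE APOLO and OE UPAT against WT. Filled points with names passed an FDR under 0.01; in OE UPAT the 3 named turnover genes and 4 of 5 named signalling genes lie below 0.

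Enzymes related to the members but outside jasmonate synthesis were compared as well, 5 genes that all had enough counts. In OE UPAT 2 rose (LOX1 and OPR2) and none fell, beside 10.1% and 9.72% of all genes. In OE APOLO none rose and 1 fell (LOX1), beside 4.27% and 2.27% of all genes. An unadjusted p under 0.05 was held by 3 in OE UPAT (41.5% of all genes) and 2 in OE APOLO (26.4%). LOX1, a 9-lipoxygenase that starts a separate oxylipin route, had 68.1, 39.5 and 40.1 CPM in WT, 21.4, 20.1 and 35.5 CPM in OE APOLO and 116, 101 and 107 CPM in OE UPAT. Its log2 fold change was 1.13 ± 0.19 in OE UPAT (FDR 0.000411) and −0.95 ± 0.21 in the libraries labelled OE APOLO (FDR 0.00655). The latter was past the threshold in 10 of 18 alternatives, and not with DESeq2 (FDR 0.0248), in a fit of WT and OE APOLO alone (FDR 0.0237), without WT A (−0.64, FDR 0.0374), or without OE APOLO A, OE APOLO B or any 1 of the OE UPAT libraries (FDR 0.011 to 0.0316). LOX1 thus shared the high level in OE UPAT with LOX2, and had the opposite direction to LOX2 in OE APOLO. OPR2, a reductase related to OPR3, rose by 0.76 ± 0.12 in OE UPAT (FDR 0.000245). OPR1, its neighbour, had a log2 fold change of 0.235 ± 0.097 in OE UPAT (FDR 0.079) and −0.413 ± 0.097 in OE APOLO (FDR 0.0102). Neither was past the threshold. The coding sequences of OPR1 and OPR2 were 85.5% identical, and the annotated genes overlap. Both had fractional counts, so their separate values are uncertain.

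Marker lists of shoot, root and early wound or touch responses were summed in each library for comparison. Shoot and root genes were both present in every library. Of 8 shoot genes of photosynthesis, 4 rose in OE UPAT (10.1% of all genes) and none in OE APOLO (4.27%). The sum of the 8 was 27420 to 34250 CPM in WT, 29630 to 34280 CPM in OE APOLO and 34370 to 41640 CPM in OE UPAT. The other 4 shoot genes had negative log2 fold changes in OE UPAT, from −0.27 for LHCB1.1 to −0.05 for LHCA1, none past the threshold. Without RBCS1A, which had a mean of 8378 CPM in WT and 12450 CPM in OE UPAT, the sums overlapped, at 20130 to 25170 CPM in WT and 23430 to 28010 CPM in OE UPAT. Of 8 root genes, 1 rose in OE UPAT (the phosphate transporter gene PHT1;1), beside 10.1% of all genes, and NRT2.1 was at or near 0. The sum of these root genes was 127.5 to 129.5 CPM in WT, 122.8 to 154.6 CPM in OE APOLO and 151.3 to 158.8 CPM in OE UPAT. Without PHT1;1 the root sums overlapped, at 112.4 to 115.1 CPM in WT and 107.8 to 116.8 CPM in OE UPAT. Of 9 genes induced early by wounding or touch, 2 rose in OE APOLO (WRKY33 and CML24), beside 4.27% of all genes. In OE UPAT 1 of the 9 rose (CML24) and 1 fell (WRKY40), beside 10.1% and 9.72% of all genes. The sum of the 9 was 325.4 to 368.1 CPM in WT, 407.7 to 462.3 CPM in OE APOLO and 295.7 to 338.6 CPM in OE UPAT. Most of it came from CML12 and XTH22, with means of 135 and 154.3 CPM in WT and 171.9 and 189.1 CPM in OE APOLO. Neither of these was past the threshold in OE APOLO (FDR 0.0428 and 0.0161). The part of shoot share, library depth or handling in the LOX2, AOS and AOC2 levels was not tested. In whole seedlings, more cells of a type and more RNA per cell cannot be told apart.

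The 5 genes whose pattern was most like that of LOX2 over the 9 libraries were AT3G22240, PAO4, QUL2, GGP1 and PLP9. Pearson's r of log2(CPM + 0.5) was 0.985 to 0.996, over 9 libraries that fall into 3 groups of different depth. AT3G22240 had 23.8, 30.7 and 28.1 CPM in WT, 35.6, 35.5 and 38.9 CPM in OE APOLO and 63.1, 61.2 and 67.9 CPM in OE UPAT, the order of LOX2 over a smaller range. Those most like VSP2, which rests on 9 to 37 counts a library, were AT2G23110, AT3G12320, CYP705A21, GALS3 and AT4G14930, with r of 0.951 to 0.963. The first of them, AT2G23110, lay under the floor in OE UPAT, at 0.22, 0 and 0 CPM. None of these 10 genes was on the jasmonate lists.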

How the data were processed

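RNA was measured in 9 libraries of whole seedlings, 3 each of WT, OE APOLO and OE UPAT. Stranded mRNA libraries were sequenced by the authors in single-end reads of 75 bases. They trimmed these with Trimmomatic 0.36, keeping those over 30 bases, removed ribosomal RNA with SortMeRNA, aligned to TAIR10 with STAR 2.5.2b and counted with featureCounts (Subread 1.6.5) and Araport11, and tested with DESeq2. The values deposited by the authors are expected counts per feature, with fractions where a read was divided between features. The setting for shared reads and the use of strand are not stated, so close copies and overlapping genes are uncertain. The 31189 transposable element rows (0.233% to 0.272% of counts) were left out of library sizes and tests.

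Counts were rounded and tested with edgeR 4.0.16 in R 4.3.3 (TMM, filterByExpr, glmQLFit and glmQLFTest, all 9 libraries in 1 fit without covariates). The filter left 20021 of 38194 genes, and the threshold was an FDR under 0.01 (Benjamini-Hochberg), that of the study. The SE of a log2 fold change is its size over the square root of F. CPM was computed from unrounded counts. Coordinates, symbols and sequences came from RefSeq TAIR10.1, in which 37898 genes were matched. No replicates agreed within sampling noise (chi-square per gene 1.75 to 7.00, about 1 for noise alone).

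The members and gene lists were chosen with earlier results of these data known. Named by rule are the 10 members, 12 genes chosen whatever their result, and the 5 genes most like LOX2 and VSP2. In each other jasmonate list, up to 4 genes past the threshold with the smallest p in each contrast with WT are named. JAZ12 and HEL were named beside these to complete counts. DAD1, DGL and the genes named from the other oxylipin and marker lists also fell outside this rule. Alternatives were DESeq2 1.42.0, RLE and upper-quartile normalization, no size factors, no filter, at least 10 counts in every library, a replicate block, each library left out in turn, fits of the compared groups alone, unrounded counts, an FDR under 0.05 and summed copies.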

Additional observations from a re-analysis of the deposited data

How the results depend on the processing

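Across the alternatives, the log2 fold change between OE UPAT and WT ranged from 3.45 to 4.19 for LOX2, 1.17 to 1.37 for AOS and 0.64 (copies summed) to 1.00 for AOC2, values from the contrast in view when these genes were selected. At least 10 counts in every library removed LOX2, which lowered the members past the threshold in OE APOLO from 2 to 1. Leaving out each library in turn gave 1 to 3 members in OE APOLO, 3 to 4 in OE UPAT and 2 to 4 between OE UPAT and OE APOLO. Of the other jasmonate genes, 0 to 4 were past the threshold in OE APOLO, 9 to 16 in OE UPAT and 11 to 14 between the lines when 1 library was left out, the 0 without WT A and the 9 without OE UPAT C. In OE APOLO, where 2 other genes were past it, no filter gave 4, only the groups compared 1 and an FDR under 0.05 gave 6. In OE UPAT an FDR under 0.05 gave 23 in place of 14. Read as the sum of AOC1 to AOC4, the difference between OE UPAT and OE APOLO was 0.36, where AOC1 alone had −0.372. The causes of these changes were not tested, except that a filter changes which genes are tested. Of 102 log2 fold changes of named genes, 20 had another sign in some alternative, and apart from the summed AOC copies none of these was past the threshold.

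Replicate letters did not clearly pair the libraries: correlations of same-letter deviations ranged from −0.25 to 0.175, and not every library correlated best with its own letter. Between OE APOLO and OE UPAT they were 0.175 for A, 0.142 for B and 0.00263 for C. Deviations from means of 3 libraries cannot settle whether the letters pair. With a replicate block, 2 members were past the threshold in OE APOLO, 4 in OE UPAT and 4 between OE UPAT and OE APOLO, and 2, 14 and 14 other genes.

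Depth limits the low genes: LOX4 could not be tested, and LOX2 in WT, VSP1 and VSP2 rest on 5 to 37 counts a library, so small differences in them were not detectable.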
